A study of Saccharomyces cerevisiae with 44 samples.

Results

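The genes described here are the 56 yeast genes that encode the proteins of the small (40S) subunit of the cytosolic ribosome, RPS0A to RPS31, out of 7127 features in the count table. They were taken by their systematic identifiers. All 56 were found, and all passed the filter on low counts. They encode 32 proteins: 24 proteins come from a pair of near-identical copies (A and B) and 8 from a single gene. For comparison, the table holds 81 genes of the large (60S) subunit.

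RNA was sequenced from haploid MATa Saccharomyces cerevisiae that carries the mutations ade1, his2, trp1 and ura3. Every strain, the wild type (WT) included, is also cln1, cln2 and cln3, which takes away the G1 cyclins, and lives on the construct leu2:LEU2::GAL-CLN3, in which a galactose promoter drives CLN3. All are bar1 and so lack the protease that degrades alpha-factor. The cultures were moved to glucose for 3 h, which stops them in G1, and alpha-factor, the mating pheromone of the opposite mating type, was given at 20 µM for 60 min. Kar4 is a partner of Ste12, the transcription factor of the pheromone response, and Ime4 is an RNA methyltransferase. Batches 1 and 2 held kar4Δ (kar4::KanMX), ste12Δ (ste12::KanMX) and WT cells, each with alpha-factor and at 0 h without it, with 4 libraries per group. Batch 3 held ime4Δ (ime4::KanMX) and WT cells, each with and without alpha-factor, with 2 libraries per group once repeat columns had been joined; its untreated labels give no time. Batch 4 held WT cells with alpha-factor and WT cells left for 60 min without it, with 2 libraries each. The labels name 1 strain per genotype and do not say whether replicates were separate cultures, so p-values measure the spread between these libraries only.

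The 36 libraries held 4.25 to 22.6 M counts, and single members had 63 to 31292 counts per library, except RPS28B, whose lowest count was 7.16. Features of ribosomal RNA took 0.0201% to 8.57% of the counts. KAR4 had 0.06 to 2.41 counts in each kar4Δ library, STE12 had 2.75 to 64.3 in each ste12Δ library and IME4 had 3.14 to 7.8 in each ime4Δ library. In WT libraries, STE12 had at least 919 counts and KAR4 at least 228, while IME4 was itself low without alpha-factor (7.33 to 48.7 counts) and high with it (1265 to 5298). Of the mating-type markers, the 5 a-specific genes summed to 3387 to 5475 CPM (the counts scaled to a common library size with TMM factors) in the kar4Δ and WT libraries of batches 1 and 2 and to 518 to 862 CPM in those of ste12Δ. The 4 alpha-specific genes summed to 3232 to 3569 CPM in kar4Δ cells with alpha-factor, against 497 to 684 CPM at 0 h. Most of that sum was SAG1, at 2928 to 3202 CPM with alpha-factor and 384 to 592 CPM at 0 h. MF(ALPHA)2 had 274 to 342 CPM in kar4Δ cells with alpha-factor, against 36.5 to 52.2 CPM at 0 h. STE3, the receptor for a-factor, had 10.3 to 16.3 CPM in these cells with alpha-factor, against 0.456 to 0.666 CPM at 0 h. MF(ALPHA)1 went the other way, at 15.0 to 20.6 CPM with alpha-factor and 44.4 to 62.2 CPM at 0 h. The part of these markers in the results was not tested. The 4 galactose-use genes summed to 43.0 to 151 CPM in batches 1 and 2.

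Each protein of the small subunit sits once in a ribosome, where the subunit binds the messenger RNA and checks each codon against its transfer RNA. The head of the subunit and its body, which includes the platform, meet at the path of the messenger RNA. Growing yeast cells spend much of their transcription on ribosomal protein genes, and these genes are known to be turned up and down together with growth signals through Rap1, Fhl1, Ifh1, Sfp1 and, at some promoters, Hmo1 or Abf1. Many of them carry an intron, which is rare among yeast genes.

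Stretches before 4 of the genes are shown first, because they hold paired matches to the Rap1 motif, the activator that the family is known for. Sequences were read from the R64 reference, the assembly of the sacCer3 build, 5′ to 3′ on the coding strand, and capitals mark ACCCNNACA or its reverse complement. They are RPS0A (chrVII:920044-920163, plus strand), RPS7A (chrXV:505266-505385, plus strand), RPS11B (chrII:332497-332616, plus strand) and RPS16B (chrIV:308125-308244, minus strand).
RPS0A: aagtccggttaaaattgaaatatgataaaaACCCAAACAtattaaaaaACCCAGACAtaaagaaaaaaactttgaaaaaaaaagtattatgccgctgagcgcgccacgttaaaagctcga
RPS7A: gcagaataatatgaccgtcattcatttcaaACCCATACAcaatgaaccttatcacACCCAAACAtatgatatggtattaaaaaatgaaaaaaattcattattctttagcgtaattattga
RPS11B: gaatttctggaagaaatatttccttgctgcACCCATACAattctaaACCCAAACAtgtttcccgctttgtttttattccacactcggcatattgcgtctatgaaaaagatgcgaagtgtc
RPS16B: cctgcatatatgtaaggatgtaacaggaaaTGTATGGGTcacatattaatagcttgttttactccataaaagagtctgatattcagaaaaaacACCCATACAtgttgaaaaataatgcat

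Within the 600 bases before the start codon, searched on both strands, 18 of the 56 genes (32.1%) held ACCCNNACA, against 39 of 81 large-subunit genes (48.1%) and 387 of 6005 coding genes (6.44%). From 250 bases before to 50 after the start, it was 4 of 56 members (7.14%) and 2.83% of coding genes. The sequence TGAAACA, which Ste12 binds, was found before 6 of 56 members (10.7%) and before 14.6% of all coding genes, and the Abf1 motif before 14 members (25.0%) and 25.7% of all. In the window from 250 bases before to 50 after the start, TGAAACA was in 2 of 56 members (3.57%) and in 7.49% of coding genes. RPS14B was the one member with a pair of TGAAACA matches in the 600 bases, both farther from the start than that window. They are in capitals in the stretch that starts 582 bases before its start codon (chrX:73205-73324, plus strand), shown because RPS14B differed most between kar4Δ and WT cells. A match is a description of the letters and not of binding.
RPS14B: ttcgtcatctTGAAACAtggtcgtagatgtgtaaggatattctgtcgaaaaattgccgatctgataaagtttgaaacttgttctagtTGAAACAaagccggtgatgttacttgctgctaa

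Some copies are so alike that part of their reads cannot be assigned. The last 90 coding bases of 3 pairs are shown with differing positions in capitals. They differ at 2 positions between RPS6A (chrXVI:377291-377380, minus strand) and RPS6B (chrII:591712-591801, minus strand), at 5 between RPS14A (chrIII:177500-177589, minus strand) and RPS14B (chrX:74522-74611, plus strand), and at 13 between RPS26A (chrVII:148229-148318, minus strand) and RPS26B (chrV:424222-424311, plus strand).
RPS6A: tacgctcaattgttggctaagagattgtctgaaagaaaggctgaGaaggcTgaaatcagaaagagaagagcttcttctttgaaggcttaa
RPS6B: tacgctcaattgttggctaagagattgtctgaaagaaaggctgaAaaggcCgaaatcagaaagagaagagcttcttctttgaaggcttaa
RPS14A: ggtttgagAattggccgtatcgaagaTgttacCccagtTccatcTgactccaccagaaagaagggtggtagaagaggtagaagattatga
RPS14B: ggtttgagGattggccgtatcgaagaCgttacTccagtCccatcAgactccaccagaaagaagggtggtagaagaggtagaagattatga
RPS26A: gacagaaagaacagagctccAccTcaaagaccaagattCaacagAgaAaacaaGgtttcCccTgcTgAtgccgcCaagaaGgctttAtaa
RPS26B: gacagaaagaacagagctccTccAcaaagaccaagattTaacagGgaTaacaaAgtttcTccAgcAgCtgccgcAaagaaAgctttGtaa

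Of all 50-base windows, the read length used, 27.3% were unique to 1 gene in the RPS6 pair, 52.3% in RPS4 and 61.5% in RPS24. In the other pairs described here it was at least 82.1%, and in RPS26 it was 100%. Values of single copies of RPS4, RPS6 and RPS24 are therefore uncertain.

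In WT cells at 0 h the 56 genes together took 2.80% ± 0.424 of all counts (SD, n = 4). Per kilobase of coding sequence, the highest levels were those of RPS20, a head protein, at 2857 ± 755 CPM per kb, RPS26A at 2534 ± 638 and RPS14A at 2534 ± 689 (SD, n = 4 each). The spread of these 3 overlapped. The lowest were RPS28B at 26.8 ± 15.0, RPS9A at 78.6 ± 7.23 and RPS21A at 146 ± 19.4 CPM per kb, each the minor copy of its pair. RPS28B is known in yeast for a transcript whose decay its own protein promotes. Copy A gave 7.91% ± 2.22 of the RPS9 counts, 10.5% ± 1.92 of RPS21, 91.1% ± 1.81 of RPS28, 88.2% ± 2.97 of RPS14 and 70.4% ± 1.57 of RPS26 in WT cells at 0 h (SD, n = 4 each).

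After 60 min of alpha-factor, nearly the whole family was lower in WT cells. The control of batches 1 and 2 was taken at 0 h, so alpha-factor and the 60 min that passed cannot be told apart in their responses. The summed share was 1.55% ± 0.109 with alpha-factor and 2.80% ± 0.424 at 0 h (SD, n = 4 each), and the ranges of 1.40% to 1.64% and 2.35% to 3.28% did not overlap. In edgeR's quasi-likelihood test, with an adjusted p under 0.05 as the call, 53 of 56 members fell and 1 rose, and the median log2 fold change was -0.71. Of all 6161 features tested, 30% were called lower and 29% higher, with a median near 0. In 40 members every alpha-factor library was below every 0 h library, against 21.6% of all features. In bulk RNA, fewer cells of a kind and less RNA per cell cannot be told apart, and these are shares of the RNA and not amounts per cell.

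**Figure D1:**
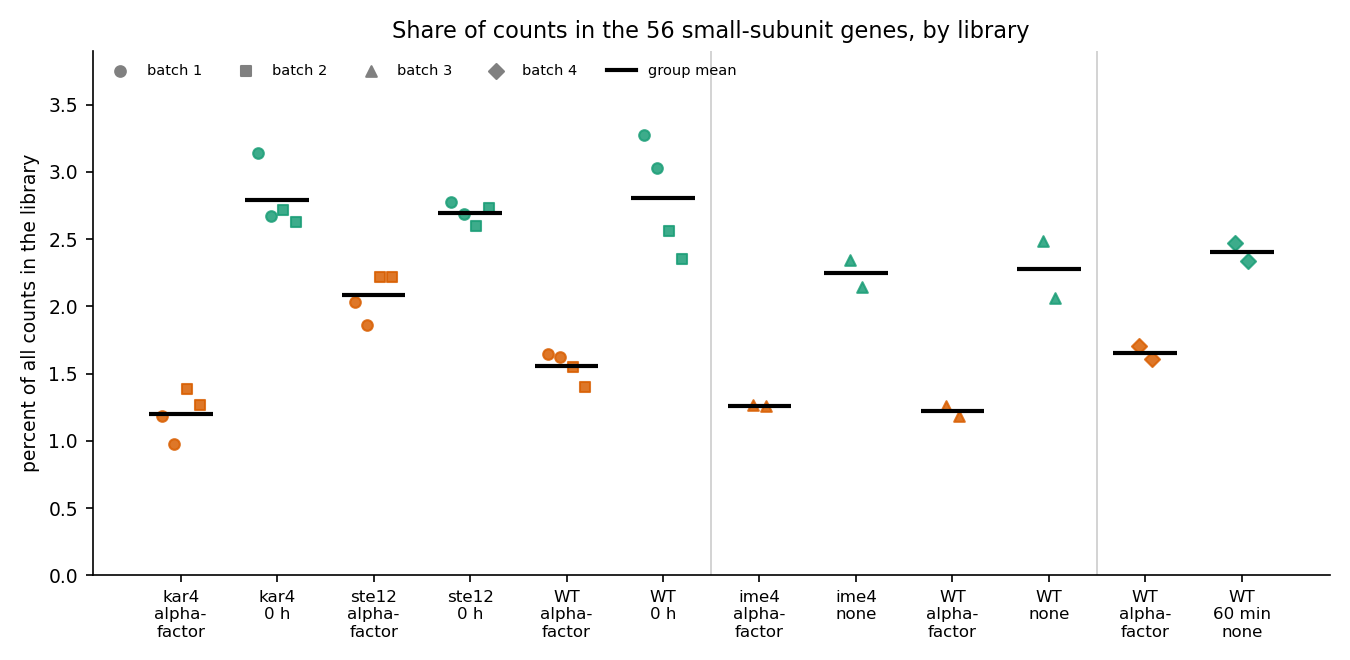
Percent of all counts taken by the 56 genes (y axis) in each library, by group (x axis), with alpha-factor in orange left of no alpha-factor in green and marker shapes for batches. Every strain's alpha-factor libraries lie below its libraries without alpha-factor, and the ste12Δ groups lie closest to each other.

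**Figure D2:**
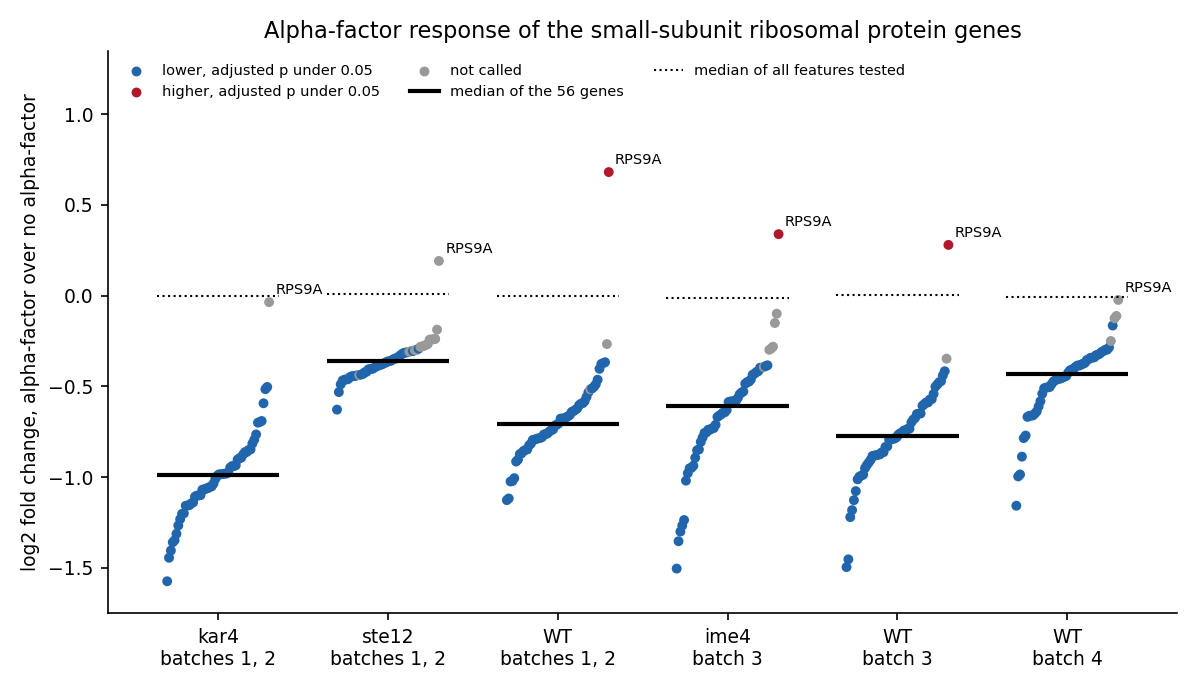
Log2 fold change of the 56 genes (y axis, alpha-factor over no alpha-factor) in the 6 responses (x axis), blue for called lower, red for called higher and grey for not called; the solid line is the median of the 56 and the dotted line that of all features. Nearly all points lie below 0, and RPS9A, labelled, is the one gene called higher in any of them.

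Among proteins of the head, RPS3 (YNL178W), which lines the entry of the messenger RNA, had 373, 379, 353 and 340 CPM in WT cells with alpha-factor and 733, 666, 604 and 507 CPM at 0 h. Every alpha-factor library was below every 0 h library. Its log2 fold change was -0.79 ± 0.12 (SE, edgeR adjusted p = 3.09e-06). RPS25B (YLR333C), also of the head, had 120, 106, 119 and 111 CPM with alpha-factor and 296, 229, 241 and 224 CPM at 0 h. Its groups were also apart, at -1.12 ± 0.13 (SE, edgeR adjusted p = 8.37e-08). RPS31, made as a fusion with ubiquitin, changed by -0.60 ± 0.13 (SE, edgeR adjusted p = 0.000324). Of the 22 genes of the head 21 fell, with a median of -0.78.

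Of the 34 genes of the body and platform 32 fell and 1 rose, with a median of -0.68. RPS26B (YER131W), whose protein sits at the exit of the messenger RNA, had 197, 188, 152 and 154 CPM in WT cells with alpha-factor and 451, 415, 339 and 307 CPM at 0 h. The groups were apart in both batches, at -1.13 ± 0.13 (SE, edgeR adjusted p = 1.05e-07). Its copy RPS26A changed by -0.37 ± 0.12 (SE, edgeR adjusted p = 0.0109), and by -0.25 without WT 0 h replicate 1 (edgeR adjusted p = 0.0681). RPS22A (YJL190C) had 155, 162, 96.9 and 98.2 CPM with alpha-factor and 368, 310, 204 and 172 CPM at 0 h. These groups were apart too, and the change was -1.02 ± 0.10 (SE, edgeR adjusted p = 1.51e-08). RPS22B, whose intron holds the small nucleolar RNA SNR44, did not pass at -0.27 ± 0.12 (SE, edgeR adjusted p = 0.0613), nor did RPS28B at -0.52 ± 0.31 (SE, edgeR adjusted p = 0.16).

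RPS9A (YPL081W; chrXVI:404950-406044, plus strand, with 1 intron) was the exception. It is the minor copy for Rps9, a protein of the body that is known to affect decoding accuracy. It had 62.8, 79.2, 81.2 and 76.2 CPM in WT cells with alpha-factor and 40.6, 46.8, 49.3 and 50.0 CPM at 0 h. All alpha-factor libraries were above all 0 h libraries, and the change was 0.68 ± 0.09 (SE, edgeR adjusted p = 3.51e-07). The major copy RPS9B fell, at -0.80 (edgeR), as did RPS14A at -0.72, RPS6B at -0.76 and RPS20 at -0.53.

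The fall was also counted by kind of gene. With an intron, 34 of 36 genes fell (median -0.71), and without one 19 of 20 (median -0.67). With a Rap1 match, 18 of 18 fell (median -0.77), and without one 35 of 38 (median -0.68). All 8 single-copy genes fell (median -0.67), as did 45 of the 48 duplicated ones (median -0.71). Across the 56 genes, which are not independent replicates, Pearson's r of the log2 fold change was -0.25 with log2 level per kb (Spearman's rho 0.07) and 0.12 with coding length (rho 0.10).

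Other genes of translation were counted in the same fit. Of the 81 large-subunit genes 77 fell and 1 rose in WT cells, with a median of -0.68. Of 18 factors that assemble the 40S subunit 13 fell and 1 rose, led by KRR1, at -0.83. Of 14 initiation factors that bind the subunit 12 fell, led by RPG1, a subunit of initiation factor eIF3, at -0.69. ASC1, the yeast RACK1 on the head of the subunit, changed by -0.99, and GCN2, the kinase that phosphorylates initiation factor eIF2, rose by 0.62. Among 12 regulators of ribosomal protein genes 5 rose and 1 fell: HMO1, a promoter-bound protein, rose by 1.37 and CRF1, a corepressor, changed by -0.76 on the log2 scale. Of the 10 marker genes of S and M phase 6 were called lower in WT cells, and the list summed to 320 to 388 CPM with alpha-factor against 617 to 712 CPM at 0 h. RNR1, a ribonucleotide reductase subunit, made up 80.1 to 150 CPM of this with alpha-factor and 317 to 358 CPM at 0 h. The part of the cell cycle in the result was not tested.

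In kar4Δ cells the fall was present and larger for some genes. The summed share was 1.20% ± 0.172 with alpha-factor and 2.79% ± 0.237 at 0 h (SD, n = 4 each). All but RPS9A fell: 55 of 56 members, with a median of -0.99, where 32.8% of all features were called lower and 33% higher. The libraries did not overlap for 53 members, against 26.6% of all features. The largest changes were RPS26B at -1.57, RPS6A at -1.44 and RPS14B at -1.40. Rps6 is the protein phosphorylated downstream of the TORC1 kinase. In the same response 79 of 81 large-subunit genes fell (median -0.95), as did 17 of 18 assembly factors, with 1 higher, and all 14 initiation factors.

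The difference in response, kar4Δ minus WT, was negative for 55 of 56 members with a median of -0.29, and 9 passed the test, all lower, where 10.2% of all features were called lower and 8.72% higher. As a share of the list, 9 of 56 is near that background. The median was -0.24 for the head and -0.35 for the body and platform. It was -0.286 for the 6 members with TGAAACA in the 600 bases before the start, of which 2 were called. For the 50 members without it the median was -0.292, and 7 were called. The largest difference was that of RPS14B (YJL191W; chrX:73787-74611, plus strand), the minor copy for Rps14 of the platform, whose pre-messenger RNA the Rps14 protein is known to bind in yeast.

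RPS14B had 43.5, 38.8, 60.5 and 55.7 CPM in kar4Δ cells with alpha-factor and 113, 125, 148 and 136 CPM at 0 h. In WT cells it had 115, 99.3, 98.3 and 99.1 CPM with alpha-factor and 128, 134, 139 and 132 CPM at 0 h. The kar4Δ libraries with alpha-factor lay below all others, while those at 0 h overlapped with WT. The difference in response was -1.03 ± 0.15 (SE, edgeR adjusted p = 2.04e-05), at -1.24 in batch 1 alone and -0.83 in batch 2 alone. Compared directly after alpha-factor, kar4Δ was lower than WT by a log2 value of -1.07 (edgeR adjusted p = 4.13e-08).

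RPS27A (YKL156W), one of the pair for Rps27 of the body, had 133, 125, 131 and 119 CPM in kar4Δ cells with alpha-factor and 288, 248, 265 and 243 CPM at 0 h. In WT cells it had 255, 216, 175 and 183 CPM with alpha-factor and 302, 290, 243 and 241 CPM at 0 h. With alpha-factor the kar4Δ libraries were below all WT libraries. The difference in response was -0.66 ± 0.15 (SE, edgeR adjusted p = 0.00271).

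RPS9A had 47.5, 45.1, 52.2 and 48.4 CPM in kar4Δ cells with alpha-factor and 48.8, 49.3, 53.0 and 46.7 CPM at 0 h. These groups overlapped, unlike in WT cells, and the difference in response was -0.72 ± 0.12 (SE, edgeR adjusted p = 0.000123). RPS14B, RPS9A and RPS27A were called in each batch alone. RPS6A was called at -0.69 ± 0.19 (SE, edgeR adjusted p = 0.0121), but at -1.25 in batch 1 alone and -0.12 in batch 2 alone, and most 50-base windows of this pair are not unique. Also called were RPS22B at -0.50, RPS7B at -0.49 and RPS4A at -0.39. These 3 calls were lost with no batch term and in batch 2 alone, where the values were -0.35, -0.20 and -0.21. Leaving out 1 library also ended the call of RPS22B in 10 of 16 fits, of RPS4A in 9 and of RPS7B in 2. Without kar4Δ alpha-factor replicate 3 the count was 20, and without replicate 1 it was 5. With the copies summed, the RPS6 pair was called for kar4Δ minus WT response at -0.53 (edgeR adjusted p = 0.0335). The RPS14, RPS9 and RPS27 pairs were not called when summed.

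**Figure D3:**
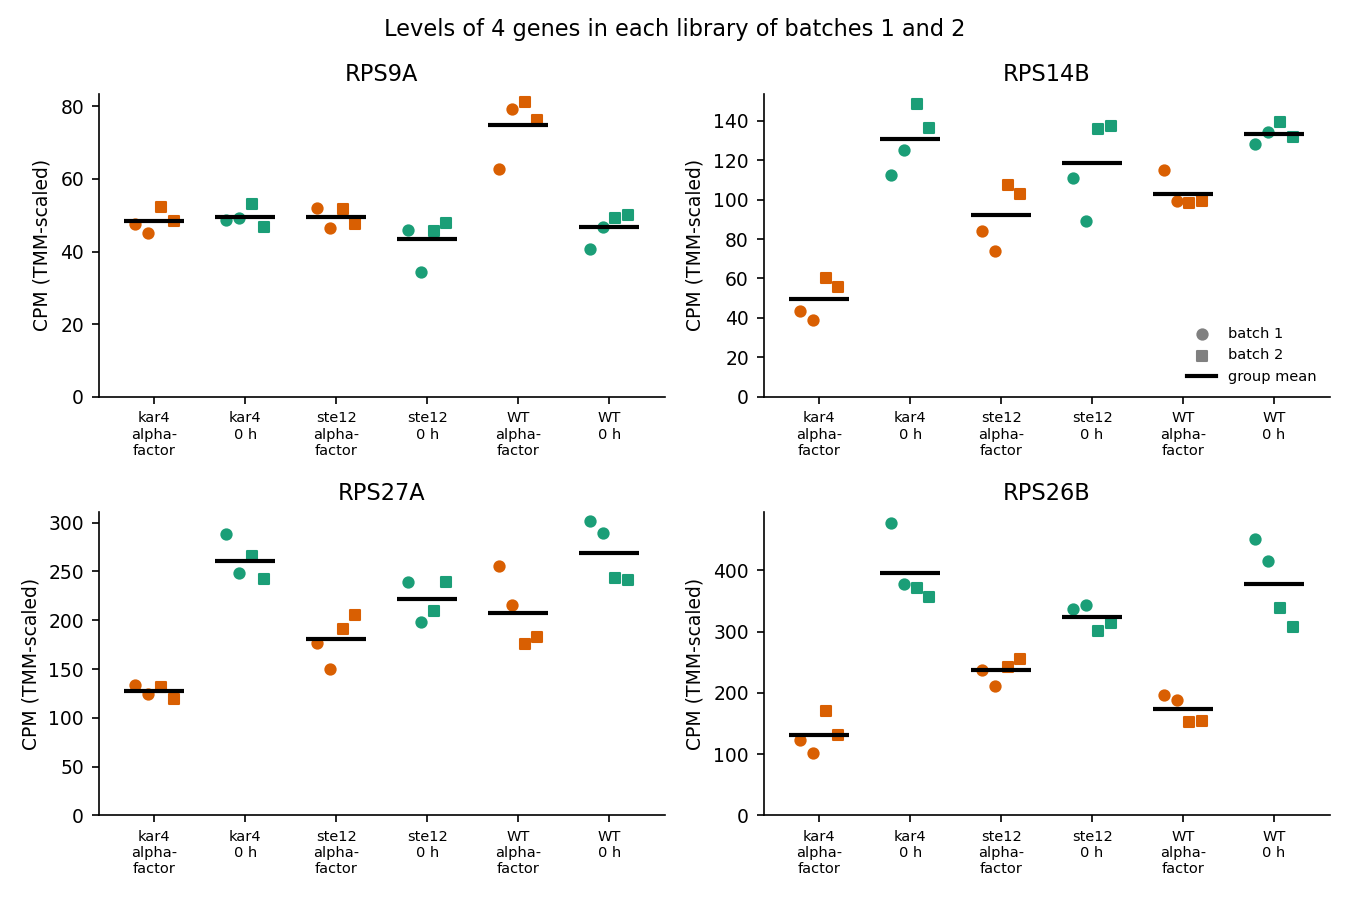
Level in CPM (y axis) of RPS9A, RPS14B, RPS27A and RPS26B in each library of batches 1 (circles) and 2 (squares), by group (x axis), with alpha-factor left of 0 h for kar4Δ, ste12Δ and WT. RPS14B and RPS27A are lowest in kar4Δ cells with alpha-factor, and RPS9A is highest in WT cells with alpha-factor.

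At 0 h, 1 member was called between kar4Δ and WT, RPS6A at 0.63 ± 0.13 (SE, edgeR adjusted p = 0.00466), where 5.84% of all features were called higher and 6.12% lower. RPS6A had 539, 849, 517 and 535 CPM in kar4Δ cells and 349, 372, 451 and 394 CPM in WT cells at 0 h. The call held in batch 1 alone and not in batch 2 alone. With the copies summed, the RPS6 pair was called higher at 0.50 (edgeR adjusted p = 0.0105). After alpha-factor, 24 members were lower in kar4Δ than in WT cells, with a median of -0.27, where 21.1% of all features were called lower and 16.8% higher, and the libraries did not overlap for 12 (15.3% of all features). Batch 1 alone called 49 and batch 2 alone 8. Without kar4Δ alpha-factor replicate 3 the count was 39 and without replicate 1 it was 15. The shares of all features called in these fits are not given here, so the counts are not a result about the family alone. In kar4Δ cells the S and M phase markers summed to 414 to 591 CPM with alpha-factor, against 569 to 613 CPM at 0 h. RNR1 made up 157 to 317 CPM of this with alpha-factor and 248 to 307 CPM at 0 h. The markers did not move together. SWI5 was higher with alpha-factor, at 11.9 to 17.1 CPM against 5.15 to 8.99 CPM at 0 h. HTB1 was lower, at 71.6 to 81.6 CPM against 108 to 129 CPM. The part of these markers in the result was not tested.

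In ste12Δ cells, which lack the transcription factor of the response, the family still fell, with a smaller median. The summed share was 2.08% ± 0.174 with alpha-factor and 2.70% ± 0.0779 at 0 h (SD, n = 4 each). Of 56 members 40 fell and none rose, with a median of -0.36, where 14.6% of all features were called lower and 17.6% higher, and the libraries did not overlap for 34 (10.6% of all features). The largest changes were RPS21A at -0.63, RPS6A at -0.53 and RPS10B at -0.49. In batch 2 alone RPS21A stood at -0.16 and RPS10B at -0.26, neither called, and RPS21A also lost its call with no batch term and without ste12Δ 0 h replicate 2 or ste12Δ alpha-factor replicate 1 or 2. Of the large-subunit genes 53 of 81 fell (median -0.34), of the assembly factors 3 of 18 and of the initiation factors 11 of 14. RPS3 had 408, 345, 456 and 470 CPM in ste12Δ cells with alpha-factor and 598, 594, 551 and 542 CPM at 0 h. Every alpha-factor library was below every 0 h library, at -0.44 ± 0.11 (SE, edgeR adjusted p = 0.00515), a call that was lost in batch 2 alone. The count was 19 without ste12Δ alpha-factor replicate 2, 23 without replicate 1, 21 with no batch term and 17 in batch 2 alone.

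The difference in response, ste12Δ minus WT, was positive for 54 of 56 members, with a median of 0.34. Of these 11 were called higher and RPS9A lower, where 18.3% of all features were called higher and 17.6% lower, and 11 of 56 is near that background. These differences share the WT libraries with those of kar4Δ, so both sets of values depend on the same WT cells. For the 6 members with TGAAACA before the start the median was 0.26, and 0 were called. For the 50 members without it the median was 0.35. RPS26B had 237, 212, 242 and 255 CPM in ste12Δ cells with alpha-factor and 336, 344, 300.2 and 315 CPM at 0 h. Those groups did not overlap, and the fall was smaller than in WT cells by 0.68 ± 0.18 (SE, edgeR adjusted p = 0.00512). RPS22A and RPS25B differed by 0.65 each, RPS29A by 0.59, and the other 7 called higher by 0.42 to 0.56. RPS25B, RPS29A and RPS17B lost the call in batch 1 alone and RPS22A with no batch term. Leaving out 1 library ended the call in 12 of 16 fits for RPS30B, 11 for RPS29B, 11 for RPS19A, 9 for RPS27B and 4 for RPS11B. RPS26B and RPS2 kept the call in every alternative run on single genes.

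RPS9A had 52.1, 46.4, 51.6 and 47.5 CPM in ste12Δ cells with alpha-factor and 45.8, 34.3, 45.5 and 47.8 CPM at 0 h. The groups overlapped, at 0.19 ± 0.08 (SE, edgeR adjusted p = 0.0763), and the response differed from that of WT by -0.49 ± 0.12 (SE, edgeR adjusted p = 0.00227). The call was lost in batch 1 alone, at -0.42 (edgeR adjusted p = 0.159), and with library totals, at -0.35 (edgeR adjusted p = 0.0569). RPS14B had 84.3, 73.9, 108 and 103 CPM with alpha-factor and 111, 89.4, 136 and 137 CPM at 0 h, and its response differed from that of WT by 0.01 ± 0.15 (SE, edgeR adjusted p = 0.97).

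**Figure D4:**
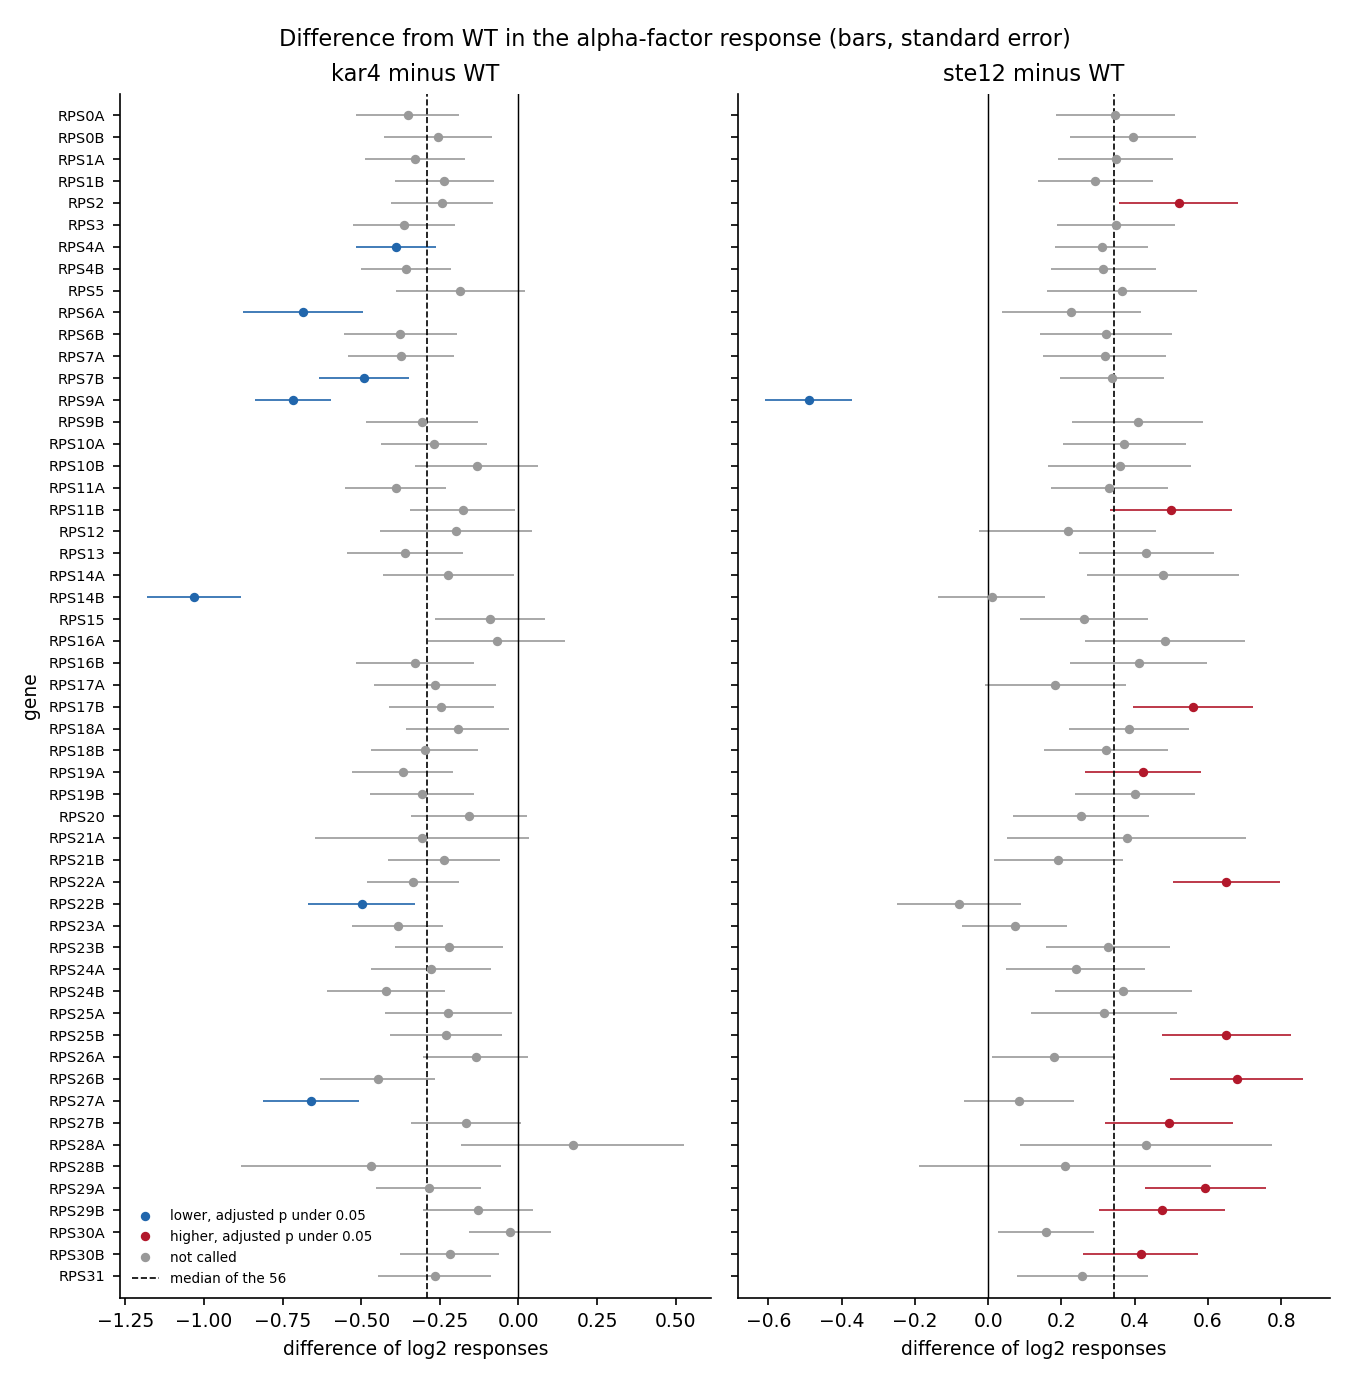
Difference in log2 response from WT (x axis, with SE) of 54 of the 56 genes, for kar4Δ and for ste12Δ, with called values in blue (lower) or red (higher) and the median of the 56 dashed. Most kar4Δ values lie below 0, with RPS14B at -1.03 the lowest, and most ste12Δ values above 0, with RPS26B at 0.68 the highest.

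At 0 h, 11 members were lower in ste12Δ than in WT cells, with a median of -0.21, where 11.9% of all features were called lower and 10.6% higher; scaled by library totals in place of TMM, which moved the median of all features by 0.19, the count was 4, with 3 higher and 1 lower. The lowest were RPS0B at -0.48, RPS14A at -0.47 and RPS24B at -0.47. In batch 2 alone they stood at -0.24, -0.12 and -0.21, and none was called. The count was 1 without WT 0 h replicate 1 and likewise without replicate 2, 23 without replicate 4, and 4 without ste12Δ 0 h replicate 1, 2 or 3. After alpha-factor 9 members were higher in ste12Δ than in WT cells, led by RPS21A at 0.70 (0.53 and not called without ste12Δ alpha-factor replicate 3), and RPS9A was lower at -0.60, where 30.9% of all features were called higher and 28.2% lower. Batch 1 alone gave 3 higher and 13 lower, and batch 2 alone 40 higher and 1 lower. The direction of the calls was thus not the same in both batches. The shares of all features called in these single-batch fits are not given here, so the counts are not a result about the family alone. In ste12Δ cells the S and M phase markers summed to 560 to 827 CPM with alpha-factor, against 606 to 635 CPM at 0 h. RNR1 made up 341 to 533 CPM of this with alpha-factor and 341 to 370 CPM at 0 h. The markers did not move together. CLB6 was called higher, at 1.17 on the log2 scale, while HTA1 had 16.4 to 25.0 CPM with alpha-factor against 25.4 to 34.8 CPM at 0 h. The part of these markers in the result was not tested.

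In batch 3, with ime4Δ cells, the family fell in both strains. The summed share was 1.26% ± 0.00585 with alpha-factor and 2.25% ± 0.144 without it in ime4Δ cells, and 1.22% ± 0.0480 and 2.28% ± 0.298 in WT cells (SD, n = 2 each). In ime4Δ cells 49 members fell and 1 rose, with a median of -0.61, where 27.9% of all features were called lower and 27.6% higher. In WT cells of this batch 54 fell and 1 rose, with a median of -0.77, where 27.7% were called lower and 27.4% higher. RPS21A had the largest change in ime4Δ cells at -1.50, followed by RPS28A at -1.35 and RPS6A at -1.30. RPS9A was the member that rose in each, at 0.34 in ime4Δ cells (edgeR adjusted p = 0.00301) and 0.28 in WT cells (edgeR adjusted p = 0.00914). Neither call held with library totals in place of TMM, at 0.06 in ime4Δ cells (edgeR adjusted p = 0.592) and 0.13 in WT cells (edgeR adjusted p = 0.274). That in WT cells was also lost with DESeq2 (adjusted p = 0.0655) and without WT alpha-factor replicate 2 (edgeR adjusted p = 0.0857). It had 60.3 and 58.9 CPM in ime4Δ cells with alpha-factor and 49.2 and 45.1 CPM without it, and in WT cells 52.2 and 54.9 CPM with and 43.7 and 44.6 CPM without. In both strains the groups were apart. Of the large-subunit genes 66 of 81 fell in ime4Δ cells, with a median of -0.59. The S and M phase markers summed to 385 to 412 CPM with alpha-factor and 640 to 674 CPM without it in ime4Δ cells, and to 351 to 389 CPM and 663 to 668 CPM in WT cells, and their part in the result was not tested.

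No member was called in the difference of response between ime4Δ and WT cells, where 0.0162% of all features were called lower and 0% higher. In edgeR 1 member had an unadjusted p under 0.05, and DESeq2 called 0. Without alpha-factor edgeR called 0 members between the strains, where 0.0325% of all features were called lower and 0% higher, with 15 at an unadjusted p under 0.05 and 0 by DESeq2, and with alpha-factor it called 0, where 0.0325% were called lower and 0.195% higher, with 7 unadjusted and 0 by DESeq2. For RPS14B the difference in response was -0.04 ± 0.12 (SE, n = 2 libraries per group).

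In batch 4, whose control cells waited the same 60 min without alpha-factor, the family fell in WT cells as well. The summed share was 1.66% ± 0.0653 with alpha-factor and 2.40% ± 0.0983 without it (SD, n = 2 each). Of 56 members 52 fell and none rose, with a median of -0.43, where 28.9% of all features were called lower and 28.9% higher. The count was 36 without WT alpha-factor replicate 2. Of the large-subunit genes 76 of 81 fell, with a median of -0.43. The S and M phase markers summed to 338 to 344 CPM with alpha-factor, against 791 to 801 CPM without it, and their part was not tested. RPS28B changed by -1.16 and RPS21A by -0.99. RPS9A had 84.3 and 81.2 CPM with alpha-factor and 89.5 and 78.7 CPM after the wait without it. These overlapped, at -0.02 ± 0.08 (SE, edgeR adjusted p = 0.83).

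Against batches 1 and 2, where the control was taken at 0 h, RPS9A was the one member whose WT response differed, at -0.71 ± 0.13 (SE, edgeR adjusted p = 0.000276), where 7.69% of all features were called lower and 8.84% higher. Its level without alpha-factor was 78.7 and 89.5 CPM after the wait in batch 4 and 40.6 to 50.0 CPM at 0 h in batches 1 and 2. The CPM of batch 4 and those of batches 1 and 2 were scaled separately. The wait and the batch cannot be told apart. The difference in WT response was positive for 47 of 56 members, with a median of 0.27. With only the groups of this comparison in the fit, 13 were called, 12 higher and 1 lower. The share of all features called in that fit is not given here. Over the 6 responses, 39 members were called lower in every one, where 6.56% of the 6101 features tested in all of them were, RPS9A in none, and RPS20, RPS26A and RPS28B in 3.

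The balance between copies was tested for each pair. It is the log2 ratio of copy A to copy B, and with 4 libraries against 4 the smallest two-sided p of the exact permutation test is 0.0286. In WT cells the RPS9 ratio was 1.46 higher with alpha-factor, with RPS9A at 18.8% ± 2.95 of the pair with alpha-factor and 7.91% ± 2.22 at 0 h (SD, n = 4 each). It was 1.11 higher in WT cells and 0.92 higher in ime4Δ cells of batch 3, and 0.42 higher in batch 4 against the control that had waited. The RPS26 ratio was 0.77 higher, with RPS26A at 80.2% ± 0.655 with alpha-factor and 70.4% ± 1.57 at 0 h, and it was 1.01 and 1.14 higher in WT and ime4Δ cells of batch 3 and 0.66 higher in batch 4. For RPS25, all of whose 50-base windows were unique, it was 0.53 higher. In these pairs the groups did not overlap, and p was the smallest possible in the exact test. The RPS22 ratio changed by -0.74. Its libraries overlapped over both batches but not within either, at -0.81 in batch 1 and -0.68 in batch 2. With 2 libraries against 2, most pairs in WT cells did not overlap within a batch. The smallest mean changes were those of RPS0, RPS6 and RPS24, and that of RPS6 is the mean of 0.33 in batch 1 and -0.31 in batch 2.

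In kar4Δ cells the ratio changed by 1.08 for RPS9, by 1.10 for RPS26 and by 0.52 for RPS25, and in ste12Δ cells by 0.59, 0.25 and 0.18. The RPS14 ratio changed by 0.47 in kar4Δ cells, by 0.10 in ste12Δ cells and by -0.32 in WT cells, each with libraries that overlapped over both batches. Within each batch the alpha-factor libraries lay above those at 0 h in kar4Δ cells, at 0.50 in batch 1 and 0.44 in batch 2. In WT cells they lay below them, at -0.52 and -0.12. With 2 libraries against 2 this sets RPS14 little apart, because most of the 24 pairs did not overlap within a batch in kar4Δ and WT cells. Pairs without overlap numbered 6 above and 3 below in kar4Δ cells (25% and 12.5% of 24), 2 above in ste12Δ cells (8.33%), and 6 above and 1 below in WT cells (25% and 4.17%). None of the 24 pairs passed adjustment over the pairs in the exact permutation test, with a smallest adjusted p of 0.0762 in kar4Δ, 0.343 in ste12Δ and 0.098 in WT cells. Because the smallest possible p of this test is 0.0286, a single pair cannot pass that adjustment, however large its change. The test therefore cannot decide whether the balance of a single pair changed.

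**Figure D5:**
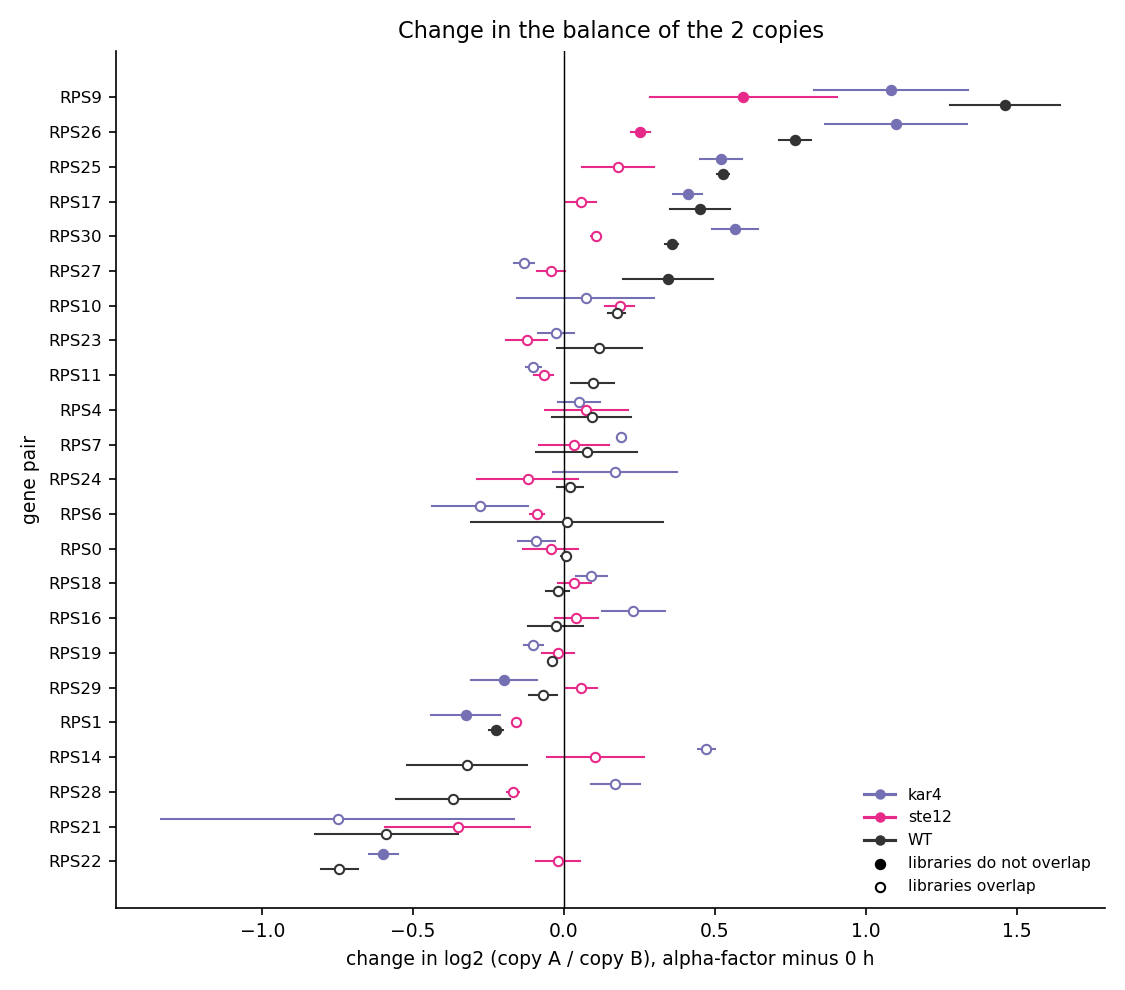
Change in log2 ratio of copy A to copy B with alpha-factor (x axis) for 23 of the 24 pairs, in kar4Δ, ste12Δ and WT cells; points are changes, lines join the values of batches 1 and 2, and filled points mark pairs whose libraries do not overlap. RPS9 and RPS26 lie farthest to the right in kar4Δ and WT cells.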

How the data were processed

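RNA-seq was deposited as 1 table of 7127 features and 44 columns. The values are expected counts made by the authors, fractional where reads were shared between features, and per the submitters' processing notes STAR, featureCounts and the sacCer3 build were used; versions and the settings for strand and multiply mapped reads are not given in the sources used here. Per the labels' protocols the libraries were stranded total RNA with ribosomal RNA depleted, read at 50 nt. All 44 columns were matched to samples by name. In batch 3, 16 columns were joined as means into 8 libraries, because the joined columns differed by less than sampling noise (chi-square per degree of freedom 0.444 to 0.701, against 5.29 to 73.2 for other pairs within a batch).

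Counts were rounded and tested with edgeR 4.0.16 (quasi-likelihood, TMM, filterByExpr with a minimum count of 10 and a minimum total of 15, R 4.3.3) over all features, with Benjamini-Hochberg adjustment and an adjusted p under 0.05. Batches 1 and 2 were fitted together with a batch term, batches 3 and 4 alone, and all 36 libraries for batch 4 against batches 1 and 2. Standard errors are the fold change over the root of F. The fits were also run on simulated counts with 1 fixed dispersion, as many genes raised as lowered and no batch effect. Those settings are simpler than these data. The copy balance used a pseudocount of 0.5 and an exact two-sided permutation test. DESeq2 1.42.0, other scalings, no filter, summed copies, single batches and left-out libraries were alternatives.

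The members and lists were chosen with earlier results of these data known. Named were the called members with the 3 largest changes each way per comparison, the 3 highest and lowest levels per kb, the pairs with the 3 largest and smallest changes of balance, and members with known roles; others were chosen after their values were seen. Values of 1 pair enter the fits and counts but are not reported here. Replicate numbers are shared between groups, and the labels say a culture was split, but not that the number marks the split. Deviations from group means correlated at 0.38 to 0.67 between same-numbered libraries of batches 1 and 2, and with batch removed at 0.09, 0.15, 0.23, 0.33 and 0.41, but at -0.15 in kar4Δ cells of batch 2. From group means, the correlations were 0.42 in WT and -0.27 in ime4Δ cells of batch 3, and 0.24 in WT cells of batch 4. Not all were over 0.1, so the numbers were not taken as pairs. Of the features, 6047 matched R64 by locus tag.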

Additional observations from a re-analysis of the deposited data

Results flagged for a closer look

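In 6 of 144 groups of 4 libraries tested, 1 library stood apart from the other 3, and chance gives about 1 in 20. These were RPS6A at 849 CPM, RPS20 at 1241 CPM and RPS26A at 1052 CPM in single kar4Δ libraries at 0 h, RPS9A at 34.3 CPM in a ste12Δ library at 0 h, and RPS14B at 115 CPM and RPS22B at 196 CPM in single WT libraries with alpha-factor.

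In the tested difference of response, kar4Δ minus WT in log2, RPS14B stood at -1.03, RPS9A at -0.72, RPS6A at -0.69, RPS27A at -0.66, RPS22B at -0.50, RPS7B at -0.49 and RPS4A at -0.39. For ste12Δ minus WT, RPS26B stood at 0.68, RPS22A at 0.65, RPS25B at 0.65, RPS29A at 0.59, RPS17B at 0.56, RPS2 at 0.52, RPS11B at 0.50, RPS27B at 0.49, RPS29B at 0.47, RPS19A at 0.42, RPS30B at 0.42 and RPS9A at -0.49. For the WT response in batch 4 minus batches 1 and 2, RPS9A stood at -0.71.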

How the results depend on the processing

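The falls in WT, kar4Δ, ime4Δ and batch 3 and 4 cells kept their direction in every alternative run, while comparisons between strains moved with batch and scaling. Causes were not tested. With copies summed into 32 proteins, the calls were 32 in the WT response, 32 in kar4Δ, 23 in ste12Δ, 32 in WT of batch 3, 28 in ime4Δ and 31 in batch 4; 2 for kar4Δ minus WT response, 3 for ste12Δ minus WT response, 13 for kar4Δ against WT with alpha-factor, 7 and 2 for ste12Δ against WT at 0 h and with alpha-factor, and 0 for batch 4 minus batches 1 and 2.

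With no batch term the calls were 21 in the ste12Δ response, 4 and 6 for the kar4Δ and ste12Δ differences of response, and 5 and 6 for ste12Δ against WT at 0 h and with alpha-factor. In batch 1 alone they were 24 and 7 for the differences of response, 5 (2 higher, 3 lower, the direction turned) and 49 for kar4Δ against WT at 0 h and with alpha-factor, and 32 and 16 (3 higher, 13 lower, turned) for ste12Δ. In batch 2 alone they were 17 in the ste12Δ response, 3 and 34 for the differences, 0 and 8 for kar4Δ against WT, and 0 and 41 for ste12Δ. With library totals in place of TMM they were 36 for the ste12Δ difference, 4 (3 higher, turned) and 47 for ste12Δ against WT, and 2 for batch 4 minus batches 1 and 2. This scaling moved the median of all features by 0.14, 0.19 and 0.33 in the 3 ste12Δ comparisons and called 1710, 2366 and 3650 of 6161 features higher. DESeq2 gave 17 for ste12Δ against WT at 0 h and 2 for batch 4 minus batches 1 and 2. With only the groups of the comparison, the calls were 3 for kar4Δ against WT at 0 h, 4 for ime4Δ against WT with alpha-factor and 13 (12 higher, turned) for batch 4 minus batches 1 and 2. With each batch 3 column as a replicate, they were 1, 19 and 14 for ime4Δ minus WT response, without and with alpha-factor.

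Leaving out each library in turn, the calls ranged over 53 to 55 in the WT response, 54 to 55 in kar4Δ, 19 to 46 in ste12Δ, 50 to 55 in WT of batch 3, 37 to 52 in ime4Δ and 36 to 52 in batch 4. They ranged over 5 to 20 and 7 to 27 for the kar4Δ and ste12Δ differences of response, with 27 without WT 0 h replicate 4, 24 without ste12Δ alpha-factor replicate 2, 21 without WT alpha-factor replicate 1, and 7 without WT 0 h replicate 1 or 2, WT alpha-factor replicate 4 or ste12Δ alpha-factor replicate 4. They ranged over 1 to 3 and 15 to 39 for kar4Δ against WT at 0 h and with alpha-factor, 1 to 23 and 6 to 14 for ste12Δ against WT, and 1 to 3 for batch 4 minus batches 1 and 2, where leaving out WT 0 h replicate 4 gave 3 (2 higher, turned). They stayed at 0 for the ime4Δ comparisons. They also stayed at 0 for the copy balance, where a single pair cannot pass the adjustment however large its change. The fit with the replicate number as a block moved no count by over 1.5 times, and of the 77 values of named members it changed none. With the untreated ime4Δ numbers exchanged in the block, chosen after seeing the data, the ime4Δ response had 49. Of 1526 alternative values for named members, 1371 kept their call, 149 lost it, 6 gained it and 0 changed sign. Depth limits RPS28B most, with 7.16 counts in 1 library.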
